A study of Mus musculus with 8 samples.

Results

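Decidualization is marked by a set of genes whose occupancy by the SWI/SNF complex was examined here in stromal cells that had not yet decidualized. The 7 genes were chosen by name among 21951 protein-coding genes: the transcription factors *Foxo1* and *Cebpb*, the receptor and intermediate markers *Prlr*, *Alpl* and *Gja1*, and the late markers *Prl8a2* and *Prl3c1*, which belong to the prolactin family. Their peaks were taken within 2 kb of any annotated TSS (the promoter) and in the gene body with 50 kb on each side (the window), in the mm10 build.

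Chromatin immunocleavage sequencing (ChIC-Seq), in which an antibody brings micrococcal nuclease to the chromatin its antigen occupies, was performed on D4 with primary stromal cells isolated from uteri of WT mice. PBRM1 (also named BAF180, a bromodomain subunit of the PBAF form of SWI/SNF) and BRG1 (its ATPase) were each assayed in 3 replicates, and no gene was deleted in these cells. The labels give day 4 of pregnancy and pseudopregnant D4 uteri of mice aged 8 to 12 weeks, 5 to 10 pooled uterine horns, 50000 cells per library and 5 minutes in 1% formaldehyde. The stroma was enriched by differential plating and was cultured only for hours before it was collected. 2 IgG libraries were not analysed here, and the study calls the 3 replicates of an antibody biological replicates, without saying how the mice were divided among them.

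Around implantation, progesterone and cyclic AMP signaling turn fibroblast-like stromal cells into large secretory decidual cells. FOXO1 and C/EBPβ are transcription factors that this program requires. Alkaline phosphatase (*Alpl*) and the gap junction protein connexin 43 (*Gja1*) appear as the stroma differentiates. The prolactin-family proteins of *Prl8a2* and *Prl3c1* are products of the mature mouse decidua. The prolactin receptor (*Prlr*) signals through JAK2 and STAT5.

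Promoters with and without peaks differed in their CpG dinucleotides, and the stretches upstream of the start are shown for this reason, with each CpG in capitals. They are 250 bases each from RefSeq (GRCm38.p6), written 5′ to 3′ in the direction of the gene, for 5 occupied promoters and for *Prl3c1*, where no peak was called. Occupied means a peak within 2 kb of a start, so a stretch need not lie under a peak. The *Prlr* stretch lay under no peak in any list.
Foxo1, chr3:52268087-52268336, plus strand: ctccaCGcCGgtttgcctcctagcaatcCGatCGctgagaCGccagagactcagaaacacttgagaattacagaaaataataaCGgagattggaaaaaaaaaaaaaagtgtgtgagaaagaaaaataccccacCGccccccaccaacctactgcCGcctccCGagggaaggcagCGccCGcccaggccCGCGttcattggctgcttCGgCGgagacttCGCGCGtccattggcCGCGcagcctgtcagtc
Cebpb, chr2:167688665-167688914, plus strand: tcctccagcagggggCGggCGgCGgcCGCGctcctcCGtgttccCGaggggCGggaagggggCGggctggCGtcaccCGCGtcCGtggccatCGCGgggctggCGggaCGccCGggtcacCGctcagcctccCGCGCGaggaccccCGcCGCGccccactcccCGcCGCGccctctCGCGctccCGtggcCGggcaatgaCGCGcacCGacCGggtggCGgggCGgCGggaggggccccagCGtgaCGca
Alpl, most upstream start, chr4:137796385-137796634, minus strand: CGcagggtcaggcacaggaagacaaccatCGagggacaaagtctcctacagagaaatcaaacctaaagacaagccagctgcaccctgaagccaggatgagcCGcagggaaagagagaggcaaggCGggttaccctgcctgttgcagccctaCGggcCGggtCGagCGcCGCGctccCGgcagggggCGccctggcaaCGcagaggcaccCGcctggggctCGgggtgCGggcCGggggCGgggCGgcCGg
Prlr, most upstream start, chr15:10176988-10177237, plus strand: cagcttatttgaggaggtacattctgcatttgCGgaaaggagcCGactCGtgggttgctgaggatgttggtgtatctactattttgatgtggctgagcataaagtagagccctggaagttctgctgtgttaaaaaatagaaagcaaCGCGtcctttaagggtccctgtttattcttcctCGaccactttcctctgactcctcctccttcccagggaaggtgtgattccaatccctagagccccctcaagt
Gja1, chr10:56377050-56377299, plus strand: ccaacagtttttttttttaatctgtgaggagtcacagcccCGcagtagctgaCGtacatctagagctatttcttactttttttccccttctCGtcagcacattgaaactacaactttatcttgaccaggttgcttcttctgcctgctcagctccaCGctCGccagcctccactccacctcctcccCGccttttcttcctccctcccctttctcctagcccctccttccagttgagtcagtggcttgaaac
Prl3c1, chr13:27196410-27196659, plus strand: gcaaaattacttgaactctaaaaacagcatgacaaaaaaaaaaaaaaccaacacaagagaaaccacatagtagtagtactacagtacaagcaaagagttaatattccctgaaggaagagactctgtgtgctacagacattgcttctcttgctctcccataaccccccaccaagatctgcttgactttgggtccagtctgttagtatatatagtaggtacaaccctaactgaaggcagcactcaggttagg
These stretches held 20 CpG at *Foxo1*, 41 at *Cebpb*, 20 at *Alpl*, 6 at *Prlr*, 6 at *Gja1* and 0 at *Prl3c1*. Of the 7 genes, 6 had an entry in the sequence table.

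The peaks came from 8 lists. The replicate lists were called from 8868777 to 16505239 PBRM1 fragments or 11506964 to 14595089 BRG1 fragments and held 21912 to 26363 and 36656 to 40610 peaks. The pooled lists of PBRM1 and BRG1 held 55119 and 82669 peaks. Each peak carries a pileup (the highest number of overlapping fragments), a q-value and its enrichment (as a fold) above the background that MACS estimated around it in the same library, since no control library entered. Fold enrichments of separate libraries are not on a common scale, so the antibodies were compared by the percentile of a peak by q-value within its own list, where 100 is the strongest. Stromal marker genes had a promoter peak in both pooled lists at 8 of 8 genes (*Vim*, *Pdgfra* and others), but so had epithelial markers (8 of 8, *Krt8* and *Cdh1* among them), and endothelial and immune markers at 2 of 6 for PBRM1 and 3 of 6 for BRG1. In all 6 replicates the counts were 4 of 8, 0 of 8 and 1 of 6. Of all protein-coding genes, 68.7% had a promoter peak in the pooled PBRM1 list and 72.1% in the pooled BRG1 list. The share was 67.7% for both pooled lists and 51.9% for all 6 replicates. A promoter peak does not measure expression, and the part of other cell types in the peaks was not tested.

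Before decidualization, PBRM1 and BRG1 peaks lay at the promoters of 5 of the 7 genes: both transcription factors and all 3 receptor and intermediate markers. The late markers *Prl8a2* and *Prl3c1* had no peak in any of the 8 lists, at the promoter or anywhere in the window. The 5 of 7 in the pooled PBRM1 list stand beside 68.7% of all protein-coding genes with a promoter peak, and the 5 of 7 in the pooled BRG1 list beside 72.1%. Both lists had one at these 5 genes, where the share of all genes was 67.7%. In single replicates the markers with a promoter peak numbered 4 of 7 in PBRM1 replicate 1 (60.0% of all genes), 5 of 7 in replicate 2 (60.7%) and 4 of 7 in replicate 3 (55.3%). They numbered 5 of 7 in BRG1 replicates 1 (66.1%), 2 (65.1%) and 3 (65.0%). All 3 BRG1 replicates had a promoter peak at the same 5 genes (61.4% of all genes). All 3 PBRM1 replicates had one at *Foxo1*, *Cebpb* and *Gja1*, 3 of 7 (52.2% of all genes), and those 3 were also the genes with a promoter peak in all 6 replicates (51.9%). A promoter peak was therefore the common state of a gene in these lists, and the share among the markers was near that of all genes. Whether the peaks exceed the IgG signal was not tested. The absence at the 2 late markers is shared by 26.4% of all genes for promoter peaks in the 8 lists and by 13.2% for any peak in the window.

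**Figure D1:**
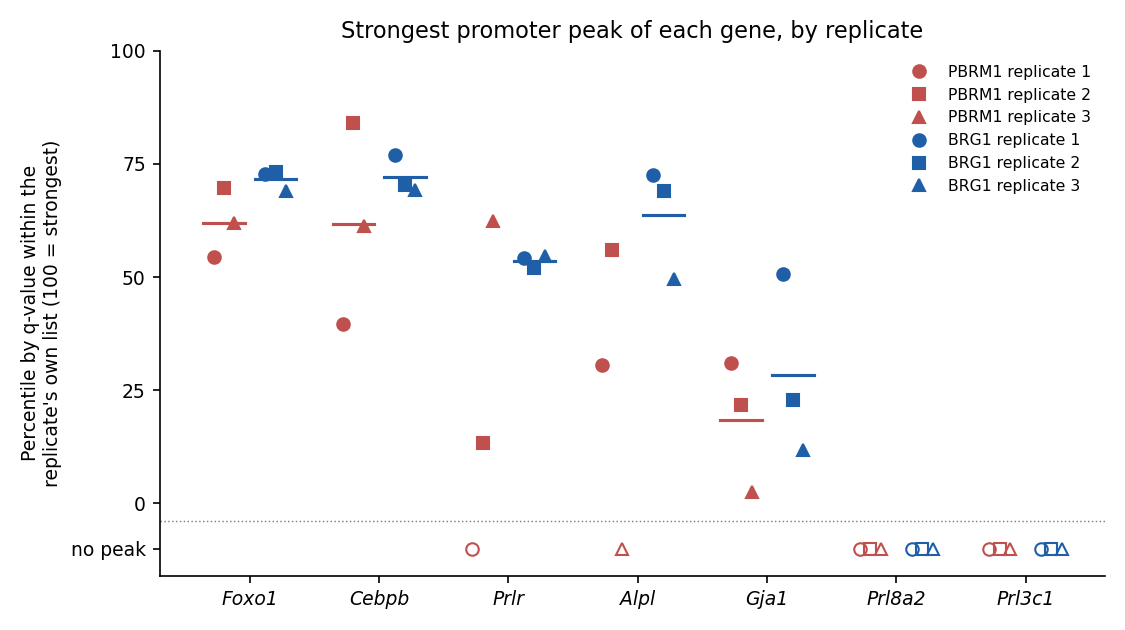
Percentile, by q-value within the replicate's own list, of the strongest promoter peak of each marker gene (y axis, 100 is the strongest); points are replicates, bars the mean of 3 replicates where all 3 had a peak, and open points under the dotted line replicates with no promoter peak. *Foxo1* and *Cebpb* have a peak in all 6 replicates, *Prlr* lacks one in PBRM1 replicate 1 and *Alpl* in PBRM1 replicate 3, and *Prl8a2* and *Prl3c1* have none.

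*Foxo1* (chr3:52268336-52353221, plus strand) encodes a forkhead transcription factor that cooperates with the progesterone receptor in stromal cells. Its annotated start lay inside a peak in all 6 replicates. The strongest promoter peak had a fold enrichment of 4.69, 4.94 and 4.15 in PBRM1 replicates 1 to 3 and of 4.77, 5.13 and 4.64 in the BRG1 replicates, on pileups of 25, 33 and 28 and of 43, 38 and 36 fragments. In percentiles the PBRM1 peaks stood at 54.5, 69.6 and 62.0 and the BRG1 peaks at 72.8, 73.3 and 68.9, so that the lowest BRG1 value lay just below the highest PBRM1 value. The means were 62.0 ± 7.53 and 71.7 ± 2.37 (SD, n = 3 each), a difference not separated from the replicate spread (two-sided exact permutation test, p = 0.2, where the smallest p possible with 3 against 3 is 0.1). The direction depends on the scale: counted in places from the top of the list, the PBRM1 peaks of *Foxo1* stood 1911 places higher on average (exact permutation test, p = 0.2), and the order turned likewise at *Cebpb* and *Gja1*. The pooled peaks were broad, 1135 bp for PBRM1 and 1387 bp for BRG1, and overlapped the neighbouring noncoding gene *Gm20402*.

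*Cebpb* (chr2:167688915-167690418, plus strand) is an intronless gene for a leucine zipper factor that is induced early in decidualization. Its promoter peak, with the pooled BRG1 summit in the coding sequence just past the start, was present in all 6 replicates. The site also lay within 2 kb of starts of *Tmem189* and the noncoding gene *A530013C23Rik*. Fold enrichments were 3.91, 5.81 and 4.00 in the PBRM1 replicates and 4.84, 4.74 and 4.68 in the BRG1 replicates. The pileups behind them were 22, 44 and 29 fragments for PBRM1 and 51, 37 and 36 for BRG1. PBRM1 varied more here than BRG1: its percentiles were 39.6, 84.1 and 61.4, against 76.9, 70.4 and 69.3. The means of 61.7 ± 22.3 and 72.2 ± 4.08 (SD, n = 3 each) did not differ beyond that spread (exact permutation test, p = 0.5), and without PBRM1 replicate 1 the difference was 0.549 percentile points in the other direction (p = 1.0).

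The 2 regulators ranked high by q-value among all peaks, and low by fold enrichment among the genes with a promoter peak. Their pooled promoter peaks stood at the 82.5 and 85.7 percentile of the PBRM1 list and at the 87.6 and 88.3 percentile of the BRG1 list. By highest fold enrichment, 4.41 and 4.71 for PBRM1, they stood at the 15 and 18.8 percentile of the genes with a promoter peak, whose median was 6.91. For BRG1 the values were 5.04 and 5.03, at the 14.1 and 14.0 percentile, with a median of 8.75. Over all peaks of the pooled lists the median fold enrichment was 3.98 for PBRM1 and 4.28 for BRG1, and both regulators stood above it. The 2 ranks thus have unlike reference sets, and the contrast between them depends in part on this. The pooled pileups of *Foxo1*, 77 for PBRM1 and 114 for BRG1, and of *Cebpb*, 89 and 123, were the highest among the markers. Beside the other occupied markers, *Foxo1* and *Cebpb* thus had more fragments at the start and also a higher local background around it. The fold enrichment is taken against that background.

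*Prlr* (chr15:10177238-10349180, plus strand) has 10 annotated start positions over the length of its gene, and the peaks lay at the most upstream group of them. A site at chr15:10177409-10178545 spanned starts of 4 annotated transcripts (*Prlr-211*, *Prlr-209*, *Prlr-202* and *Prlr-207*), with its summit in the intron behind them. BRG1 replicates gave fold enrichments of 6.23, 6.12 and 6.26 there, PBRM1 replicates 2 and 3 gave 4.04 and 6.08, and PBRM1 replicate 1, the library with the fewest fragments, had no peak. The pileups were 9 and 16 fragments for PBRM1 and 14, 12 and 13 for BRG1, fewer than at either regulator. The start shared by the largest number of transcripts, 3 at position 10223986, had no peak within 2 kb in any list. At the other internal starts a peak was called once in BRG1 replicate 3 and once in the pooled BRG1 list.

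The 2 kinds of *Prlr* start also differed in sequence. In the 2000 bp around the 5 most upstream starts the ratio of observed to expected CpG was 0.465 to 0.521, whereas it was 0.100 at position 10223986 and at most 0.253 at the other internal starts. The window as a whole was sparse, with 3 peaks in the pooled PBRM1 list and 6 in the pooled BRG1 list. Per 100 kb this placed *Prlr* at the 24.0 and 27.4 percentile of all protein-coding genes, whose medians were 3.67 and 5.44 peaks per 100 kb.

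*Alpl* (chr4:137741733-137796384, minus strand) encodes tissue-nonspecific alkaline phosphatase, a long-used histochemical marker of the decidual reaction. The site at its most upstream starts, chr4:137795746-137796636, had fold enrichments of 8.05, 7.85 and 5.66 in the BRG1 replicates on pileups of 23, 18 and 13 fragments. PBRM1 replicates 1 and 2 had 5.13 and 6.02 on 10 and 16 fragments, and PBRM1 replicate 3 had no promoter peak. That library had the most fragments of the PBRM1 replicates, but the fewest peaks (21912) and the lowest median fold enrichment (4.75). At 9.36 in the pooled BRG1 list, the *Alpl* promoter had the highest promoter fold enrichment among the markers. In that list it was the only marker above the median of all genes with a promoter peak. In the pooled PBRM1 list it had 5.93, below the median of 6.91, and *Prlr* had the highest value of the markers, 6.40.

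A further *Alpl* site was found with BRG1 alone. It lay in an intron at chr4:137765653-137765966, 509 bp from the internal start of *Alpl-205*, and had fold enrichments of 5.39, 4.87 and 4.21 in the 3 BRG1 replicates and 6.16 in the pooled list. Neither the PBRM1 replicates nor the pooled PBRM1 list had a peak there. Because a peak list holds no value where no peak was called, the size of this difference could not be tested.

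*Gja1* (chr10:56377330-56402513, plus strand) had promoter peaks of low rank by q-value: its mean percentile was the lowest of the 5 occupied genes for BRG1, and for PBRM1 the lowest of the 3 with a peak in all 3 replicates. The strongest peak had a fold enrichment of 4.81, 3.92 and 3.06 in the PBRM1 replicates and of 4.83, 3.71 and 3.32 in the BRG1 replicates, each on 12 to 19 fragments. In percentiles these were 31.1, 21.7 and 2.55 against 50.6, 22.8 and 11.8, so that the antibodies overlapped. The means were 18.4 ± 14.5 and 28.4 ± 20.0 (SD, n = 3 each; exact permutation test, p = 0.5), and without BRG1 replicate 1 the difference was 1.14 in the other direction (p = 1.0). The peaks lay past the most upstream starts. The site at chr10:56378602-56379295, which 2 PBRM1 and all 3 BRG1 replicates shared, had its summit 1.5 kb downstream of the most upstream TSS, in an exon. In PBRM1 replicate 3 and BRG1 replicate 2 the strongest peak lay at chr10:56377933-56378297. The percentiles compared above are thus not all from the same site, and no *Gja1* site was shared by all 6 replicates. At the most upstream start itself a peak was called in 1 of 6 replicates, BRG1 replicate 1, and in both pooled lists (fold enrichment 2.60 for PBRM1 and 4.77 for BRG1).

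Across the windows of the 7 genes, overlapping peaks of the 8 lists merged into 76 sites: 19 at *Foxo1*, 22 at *Cebpb*, 8 at *Prlr*, 20 at *Alpl*, 7 at *Gja1* and 0 at the late markers. Of these, 38 were called only in a pooled list. All 3 BRG1 replicates shared 16 sites and all 3 PBRM1 replicates shared 5, and these 5 were among the 16. They were the *Foxo1* promoter, a site beyond the *Foxo1* gene, the *Cebpb* promoter and 2 further sites in the *Cebpb* window. No site with a peak in all 3 PBRM1 replicates lacked one in a BRG1 replicate, whereas 11 sites had the reverse pattern, and of these 3 had no peak in a PBRM1 replicate. The BRG1 lists held more peaks in all, so this order of the antibodies was also that of the lists. Genome-wide shares of these patterns are not given here, so the counts describe these windows only.

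**Figure D2:**
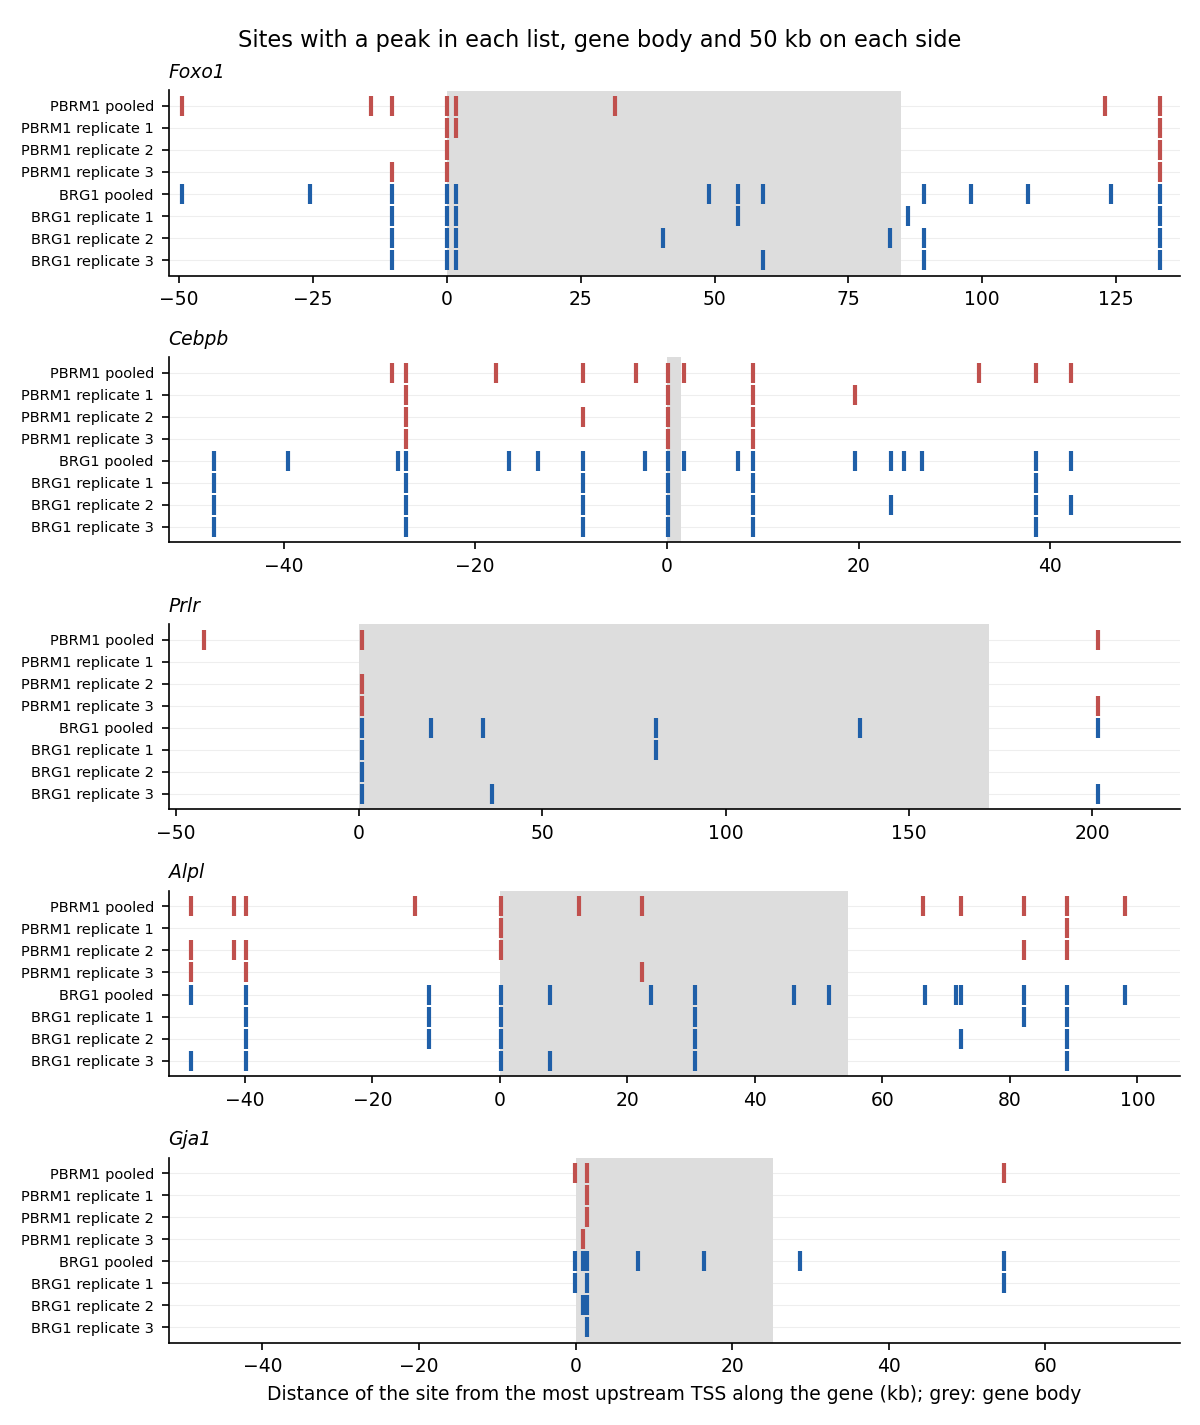
Sites in the windows of the 5 genes with peaks; the x axis gives the distance of each site from the most upstream TSS in kb along the direction of the gene, the rows are the 8 lists and the grey area is the gene body. Ticks that run through all rows mark the sites shared by all 6 replicates: 2 at *Foxo1*, 3 at *Cebpb* and 0 at *Prlr*, *Alpl* and *Gja1*.

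The numbers of peaks per window followed the same division. At *Foxo1* the PBRM1 replicates had 4, 3 and 4 peaks and the BRG1 replicates 6, 8 and 7. At *Cebpb* they had 4, 4 and 3 and 6, 8 and 6. These 2 regulators were the genes of the 5 tested where the antibodies did not overlap, and the exact permutation test gave p = 0.1 for each, the smallest value it can give. Over all protein-coding genes, 22.1% had BRG1 numbers all above the PBRM1 numbers and 0.0364% the reverse, so that the 2 of 7 markers stand beside a general excess of BRG1 peaks. *Alpl* had 2, 6 and 3 against 7, 6 and 6, *Prlr* 0, 1 and 2 against 3, 1 and 3, and *Gja1* 1, 1 and 1 against 3, 2 and 1. The antibodies overlapped at these 3 genes (exact permutation tests, p = 0.3, 0.3 and 0.4). When only the 20000 strongest peaks of each replicate were kept, the mean difference at *Foxo1* and at *Cebpb* was 0 (exact permutation test, p = 1.0 for each), so that no difference remained at equal list sizes. At *Alpl* and *Gja1* the order then turned, by 0.667 and 0.333 peaks. With a flank of 10 kb in place of 50 kb, the difference at *Cebpb* was -0.667 peaks (exact permutation test, p = 0.4), and the separation there was lost, while at *Foxo1* it was -2.33 (p = 0.1). In the pooled lists *Cebpb* had 10.8 and 17.7 peaks per 100 kb, at the 93.8 and 98.7 percentile of all protein-coding genes. *Foxo1* stood near the middle, with 4.33 and 7.03.

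**Figure D3:**
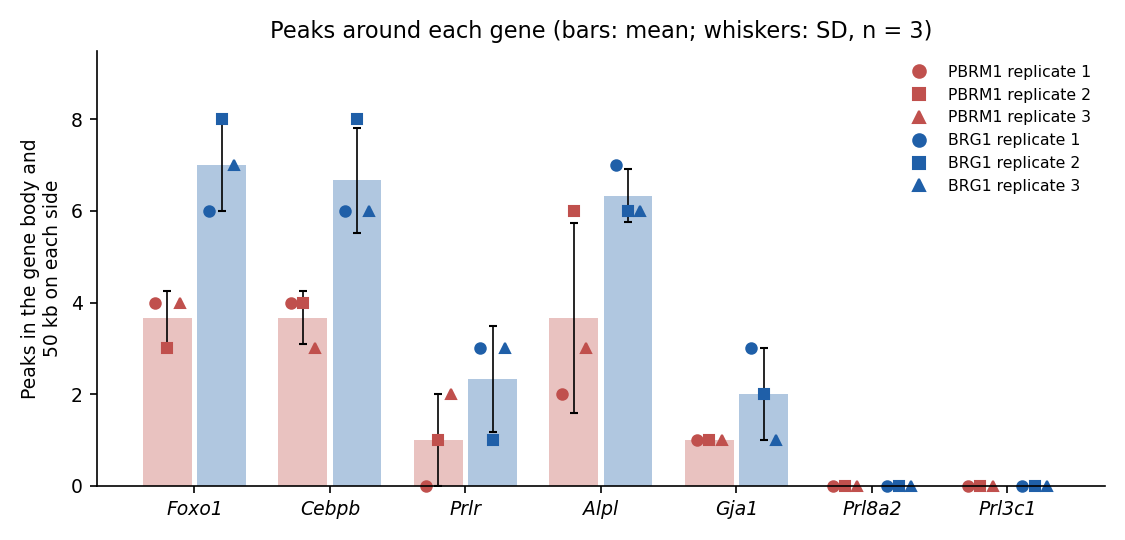
Number of peaks in the gene body and 50 kb on each side (y axis) of each marker gene in the 3 PBRM1 and 3 BRG1 replicates; bars are means, whiskers the SD and points the replicates. The BRG1 points of *Foxo1* (6 to 8) and *Cebpb* (6 to 8) lie above the PBRM1 points (3 to 4 at both genes), the other genes overlap, and *Prl8a2* and *Prl3c1* are at 0.

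Away from promoters, 7 of the sites shared by all 3 BRG1 replicates lay over 2 kb from every annotated TSS. The sequences of 4 of them are shown because they lie around the 2 regulators and had a peak in a PBRM1 replicate as well, 75 bases on either side of the pooled BRG1 summit, read from GRCm38.p6. Capitals mark letters matching the strings GGGCGG or TGAGTCA, or the core of the CTCF motif, on either strand. The core was taken as CC, 3 free positions, AG, 2 free positions and GGC.
Foxo1, 10.3 kb upstream, chr3:52257925-52258075, plus strand: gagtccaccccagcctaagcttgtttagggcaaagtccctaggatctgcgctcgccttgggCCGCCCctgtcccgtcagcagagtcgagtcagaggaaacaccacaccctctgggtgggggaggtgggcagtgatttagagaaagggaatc
Foxo1, 133.2 kb past the start, chr3:52401414-52401564, plus strand: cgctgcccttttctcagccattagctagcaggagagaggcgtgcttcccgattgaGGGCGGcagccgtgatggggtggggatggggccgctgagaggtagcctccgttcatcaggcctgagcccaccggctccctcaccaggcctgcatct
Cebpb, 8.8 kb upstream, chr2:167680045-167680195, plus strand: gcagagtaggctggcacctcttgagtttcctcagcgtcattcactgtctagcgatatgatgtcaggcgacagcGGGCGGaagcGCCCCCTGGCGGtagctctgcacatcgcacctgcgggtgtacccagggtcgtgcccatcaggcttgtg
Cebpb, 9 kb downstream, chr2:167697876-167698026, plus strand: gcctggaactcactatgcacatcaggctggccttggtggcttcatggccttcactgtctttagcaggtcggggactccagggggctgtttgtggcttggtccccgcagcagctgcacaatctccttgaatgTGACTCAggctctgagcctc
The *Foxo1* upstream site (chr3:52257844-52258161) is intergenic. Its BRG1 fold enrichments were 6.63, 7.37 and 6.84, above those of the *Foxo1* promoter in each BRG1 replicate. By percentile the order was the reverse, with 65.9, 69.1 and 63.4 against 72.8, 73.3 and 68.9 at the promoter. A peak was called at this upstream site in 1 of 3 PBRM1 replicates (4.47, replicate 3). The site beyond the 3′ end of *Foxo1* (chr3:52400853-52402038) is intergenic too, with *Foxo1* the nearest protein-coding start. It was present in all 6 replicates, with fold enrichments of 6.79, 7.31 and 5.48 for PBRM1 and of 8.81, 6.42 and 5.71 for BRG1.

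Around *Cebpb* the distal sites lay in other genes. The upstream site (chr2:167679756-167680312), in an intron of *Tmem189*, had BRG1 fold enrichments of 5.57, 7.24 and 4.34 and a peak in PBRM1 replicate 2 (5.54). The downstream site (chr2:167697864-167698453), in an intron of the noncoding gene *A530013C23Rik*, had a peak in all 6 replicates, with fold enrichments of 3.85, 3.93 and 4.12 for PBRM1 and 4.63, 4.07 and 4.21 for BRG1. A *Tmem189* start was nearer to it than that of *Cebpb* (8.1 against 9 kb). 2 more sites, 47.3 kb upstream (in *Gm20431*) and 38.5 kb downstream (in *A530013C23Rik*), had a peak in the 3 BRG1 replicates and in 0 of 3 PBRM1 replicates. The site 38.5 kb downstream had a peak in the pooled PBRM1 list (fold enrichment 3.01). Both sites had a *Tmem189* start as their nearest protein-coding start. The third site of this window with peaks in all 6 replicates (chr2:167661527-167662212) was at the promoter of *Tmem189*, *Gm20431* and *Gm14320*. Its fold enrichments, 8.55, 6.03 and 5.33 for PBRM1 and 6.17, 6.74 and 7.19 for BRG1, were above those of the *Cebpb* promoter in each replicate. By percentile the site stood lower than that promoter in PBRM1 replicate 2 (77.1 against 84.1) and higher in the other replicates. The *Alpl* window held 1 distal site of this kind, 39.8 kb upstream of the gene and nearer to a start of *Ece1*, with a peak in 3 BRG1 and 2 PBRM1 replicates. At *Alpl* the peaks at the *Rap1gap* promoter reached 9.38, 10.6 and 8.74 in the BRG1 replicates, above the *Alpl* promoter in each.

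Over 250 bp on either side of the summit, GGGCGG, a GC box, was found at 5 of the 7 distal sites, and in 31.7% of the 6469 distal sites of the genome that all 3 BRG1 replicates shared. The core letters that the insulator protein CTCF is known to prefer were found at 4 of 7 and in 19.4% of the 6469 (this string was chosen after the sequences were seen, and it does not overlap a GC box at the *Cebpb* site shown). TGAGTCA, an AP-1 string, was found at 1 of 7, the downstream *Cebpb* site, and in 18.8% of all. TGTTTAC (forkhead) and TTGCGCAA (C/EBP) were found at 0 of 7, and in 6.69% and 0.309% of all. The palindrome of steroid hormone receptors, ACA and TGT with 3 free positions between them and a fixed outer G and C, was also found at 0 of 7, and in 1.08% of all. Both strands were searched, and a match of letters is not a measured binding site.

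*Prl8a2* (chr13:27345673-27354216, plus strand) and *Prl3c1* (chr13:27196659-27203749, plus strand) encode decidual prolactin-family proteins, and both lie in the prolactin gene cluster. The nearest peak to a *Prl8a2* start was 644.4 kb away in the pooled PBRM1 list and 721 kb away in the pooled BRG1 list. For *Prl3c1* the distances were 495.4 and 572 kb. In the replicates they ranged from 721 to 1412.3 kb for *Prl8a2* and from 572 to 1561.3 kb for *Prl3c1*.

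Promoter peaks were missing from the rest of the family as well. Of 26 prolactin-family genes on chromosome 13, taken by gene symbol and not by expression in the decidua, 0 had a promoter peak in any of the 8 lists. Of all protein-coding genes, 26.4% had none. 25 of the 26 had no peak in the window (13.2% of all genes), the exception being *Prl2c3* with 1 pooled PBRM1 peak. This gene lies with 2 others of the family in a separate block of 401.1 kb, which held 4 peaks in each pooled list and 1 in PBRM1 replicate 3. 23 of the 26 form a cluster of 1094 kb, chr13:27057570-28151611, from *Prl* to *Prl5a1*. Windows of neighbours overlap there, so the genes without a window peak are not separate absences. This stretch held 0 peaks in 7 lists and 1 in the pooled BRG1 list, with a fold enrichment of 3.42 and a −log10 q of 2.78, while chromosome 13 as a whole held 2404 pooled PBRM1 and 3724 pooled BRG1 peaks. Of the cluster, 45.3% is masked as repeats, against 23.2% to 34.6% of the windows of the 5 genes with peaks, and the authors removed reads with low mapping quality. Of the 50-base sequences in it, 82.7% occur once in the genome, and 86.2% and 96.0% within 2 kb of the most upstream start of *Prl8a2* and *Prl3c1*, against 99.3% to 100% for the 5 genes with peaks. Most of the cluster could thus be placed uniquely at this length, and the part of mappability in the missing peaks was not tested.

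The late markers also stood apart in the CpG content of their promoters. In the 2000 bp around the TSS with the most transcripts, observed to expected CpG was 0.985 at *Foxo1* and 0.910 at *Cebpb*, at the 99.6 and 98.1 percentile of protein-coding genes. It was 0.565 at *Alpl* and 0.480 at *Gja1*, near the median of 0.470. At *Prlr* it was 0.100 at this TSS, as given above, and higher at the occupied starts. It was 0.0726 at *Prl8a2* and 0.0742 at *Prl3c1*, at the 3.03 and 3.21 percentile, and 0.0537 to 0.197 over the prolactin family. Over all genes, promoter peaks followed this measure. Of 5228 genes with a ratio below 0.2, 17.5% had a pooled PBRM1 and 21.1% a pooled BRG1 promoter peak, against 98.5% and 99.4% of the 1813 genes at 0.8 or over. A promoter without a peak was thus the usual state of genes with as few CpG as the late markers.

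**Figure D4:**
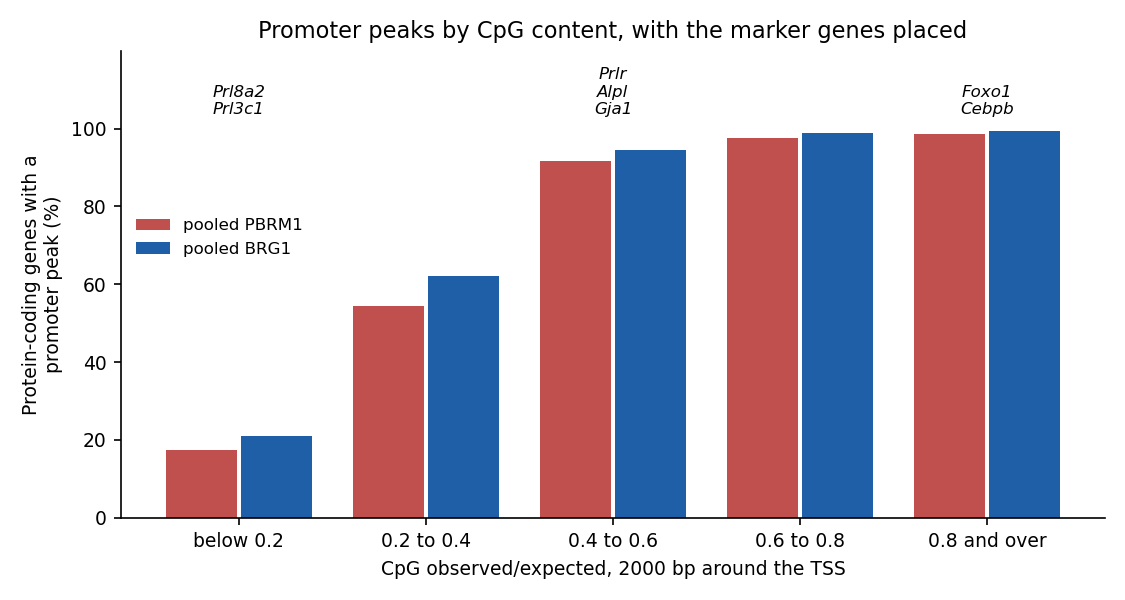
Share of protein-coding genes with a promoter peak in the pooled PBRM1 and BRG1 lists (y axis, percent) by the ratio of observed to expected CpG in 2000 bp around the TSS with the most transcripts (x axis). Marker names stand over the class of their most upstream TSS; the share rises from 17.5% and 21.1% in the class of *Prl8a2* and *Prl3c1* to 98.5% and 99.4% in that of *Foxo1* and *Cebpb*, and *Prlr* would stand in the lowest class by its TSS with the most transcripts.

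Other genes of the program were set beside the markers. Of 16 other regulators, all 16 had a promoter peak in both pooled lists (67.7% of all genes). In all 3 PBRM1 replicates 13 had one (52.2%), and in all 3 BRG1 replicates 15 (61.4%). The 2 with the highest PBRM1 percentile were *Klf9* (99.3), a progesterone-responsive zinc finger gene, and *Stat3* (99.0), a mediator of LIF signaling, both above *Foxo1* and *Cebpb*. Of 12 other downstream markers, 10 had a promoter peak in the pooled PBRM1 list (68.7% of all genes) and 11 in the pooled BRG1 list (72.1%). The 2 with the highest PBRM1 percentile were *Cdkn1a* (96.5) and *Bmp8a* (85.6), and in the BRG1 list *Hbegf*, *Htra1* and *Ccnd3* stood above *Bmp8a*. *Tdo2*, which encodes a tryptophan-degrading enzyme of the decidua, had none in the 8 lists. *Igfbp1*, a classic decidual product in humans, had a peak with BRG1 only, in the pooled list (fold enrichment 4.47) and in 1 of 3 replicates. So the late prolactin genes and *Tdo2* were without promoter peaks, but *Ptgs2*, *Il11* and *Hbegf* had them in all 6 replicates, and absence was not a property of downstream markers as a group.

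Of 17 relatives of the markers, 8 had promoter peaks in all 6 replicates (51.9% of all genes) and 4 had none in the 8 lists (26.4%). These counts are near the shares of all genes. Among the relatives, *Foxo3*, *Foxo6*, *Cebpa*, *Cebpd* and *Cebpg* had promoter peaks in all 6 replicates, as *Foxo1* and *Cebpb* had. Their pooled PBRM1 fold enrichments were 5.27 to 11.0, each above those of *Foxo1* and *Cebpb*. *Foxo4* had them in 2 PBRM1 and 3 BRG1 replicates and *Cebpe* in 2 BRG1 replicates. Their pooled PBRM1 fold enrichments were lower, 4.57 at *Foxo4* (below *Cebpb*) and 3.58 at *Cebpe* (below both). *Alpl* differed from its relatives: *Alpi*, *Alppl2* and *Akp3*, the intestinal and related alkaline phosphatases, had no promoter peak in a replicate, and *Akp3* had 1 in the pooled BRG1 list. Connexin genes were divided, with *Gja4* and *Gja5* occupied in all 6 replicates, *Gja3* in the 3 BRG1 replicates, *Gja10* in 1 BRG1 replicate, and *Gja6* in no list. *Ghr*, the growth hormone receptor gene related to *Prlr*, had a promoter peak in all 6 replicates (pooled fold enrichments 7.06 and 8.95).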

How the data were processed

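Peak lists of ChIC-Seq for PBRM1 and BRG1 (3 replicates each) were analysed, and samples were grouped by antibody from their labels. As the methods describe, the authors aligned trimmed reads to GRCm38/mm10 with Bowtie2, removed reads of low mapping quality and duplicates, and called peaks with MACS 2.2.7.1 per replicate and on the pooled reads of each antibody. The labels name build GRCm38.p5. Per the file headers, no control file was given and the q-value cutoff was 0.05, with 10000 bp of sequence as the regional background. The deposited lists hold for each peak a pileup signal (fragments, not scaled for depth), the −log10 of its q-value, and its fold enrichment against the surrounding background.

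From the lists, peaks were matched to GENCODE TSSs and gene bodies with an overlap of at least 1 bp (Python 3.11.15, numpy 2.4.6, pandas 2.3.3, scipy 1.17.1, matplotlib 3.10.9). Coordinates are 1-based. Steps were tested on simulated data. Percentiles rank peaks by q-value within a list. Antibodies were compared with a two-sided exact permutation test over replicates. Alternatives were other promoter distances, flanks, ranks, peak thresholds and list sizes, and each replicate left out. The genes, lists and tests were chosen with earlier results of these data known. Named genes beyond the 7 were list genes without a pooled promoter peak, the 2 of a list with the highest PBRM1 percentile, prolactin genes with a promoter peak (there were none) and genes with a TSS within 2 kb of a window peak. Further list genes were named after their values were seen. 1 list gene is not reported here.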

Additional observations from a re-analysis of the deposited data

How the results depend on the processing

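Each result was recomputed with 1 choice changed at a time, and the larger changes are given here. Counts of peaks in the windows moved with the definition. For PBRM1 they were 37 as reported, 14 with a flank of 10 kb, 77 with 100 kb, 19 above a stricter threshold (−log10 q of 5 or more) and 5 for pooled peaks found in all 3 replicates. For BRG1 they were 60, 29, 106, 34 and 16. Genes with a pooled PBRM1 promoter peak were 5 and became 2 when the peak had to be found in all 3 replicates.

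The direction of the PBRM1 to BRG1 difference at promoters depended on how rank was counted. By rank from the top of the list, the PBRM1 peak stood 1911 places higher at *Foxo1* (p = 0.2), 1751 at *Cebpb* (p = 0.6) and 7891 at *Gja1* (p = 0.3) (exact permutation tests), because the BRG1 lists are longer. With the 20000 strongest peaks per replicate, the window counts of *Alpl* and *Gja1* were higher with PBRM1 by 0.667 and 0.333 (exact permutation tests, p = 0.9 and 1.0), and the difference at *Prlr* was -0.333 (p = 1.0). With a flank of 10 kb, the window difference was -0.667 at *Cebpb* (exact permutation test, p = 0.4, against -3 and 0.1 with 50 kb) and -1.33 at *Alpl* (p = 0.1, against -2.67 and 0.3). With a replicate left out, the percentile difference ranged from -13.4 to -5.87 at *Foxo1*, from -21.7 to 0.549 at *Cebpb* (positive without PBRM1 replicate 1) and from -18.3 to 1.14 at *Gja1* (positive without BRG1 replicate 1). The window difference ranged from -3.83 to -2.83 at *Foxo1*, -3.33 to -2.33 at *Cebpb*, -2 to -0.833 at *Prlr*, -3.83 to -1.83 at *Alpl* and -1.5 to -0.5 at *Gja1*. Genes with a promoter peak in every remaining replicate were 3 to 4 for PBRM1 and 5 for BRG1.

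Replicates of the same number did not deviate together (correlations of -0.0445, -0.0139 and -0.0133 over 13084 peaks). Those of different numbers did not either (-0.0168 to 0.0308). Whether samples of the same number share cells cannot be told from these values, and neither labels nor methods state it. With the replicate block the mean differences stayed at -9.63, -10.5 and -9.97, with p = 0.25, 0.75 and 0.25, for the percentiles of *Foxo1*, *Cebpb* and *Gja1* (exact sign-flip permutation test). For the window counts p was 0.25 at *Foxo1* and *Cebpb* and 0.5 at *Prlr*, *Alpl* and *Gja1*, with 0.25 the smallest p of 3 pairs.

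Depth limits what an absent peak means. The pileups behind promoter peaks were as low as 9 fragments in a replicate, so weaker occupancy would not be called, and the lists hold no value below the threshold.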
